A study of Homo sapiens with 6 samples.

Results

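The transcripts of RAB small GTPases were measured in Syy-treated LX2 cells (3 arrays) and in control LX2 cells (3 arrays). The family was taken as every gene whose platform symbol is RAB followed by a number and at most 1 letter with further digits, which gave 58 of the 18365 genes with a symbol of their own on the array. LX2 is an established human line of hepatic stellate cells, which lay down collagen in fibrosis, and all 6 samples come from this 1 line. Syy is a code name for a small compound that the submitters describe as blocking secretion from stellate cells. No source used here gives the dose, the duration or the vehicle. Nor do the labels say whether replicates were separate cultures, so p-values reflect only how far these samples spread, which may be technical.

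RAB proteins are molecular switches that mark the membranes of the cell. Bound to GTP they recruit effectors, such as tethers and motor adaptors, that move, dock and fuse vesicles. Exchange factors switch them on, GTPase activating proteins switch them off, and a prenyl anchor added by a dedicated transferase holds them on the membrane. In stellate cells the same traffic carries collagen and other matrix proteins out of the cell. Transcript levels do not show how much of a RAB is in the active state.

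Values below are log2(intensity + 16), quantile normalized over the 6 arrays, and a difference is the Syy mean minus the control mean on that scale, with its standard error (SE) from limma. The scale understates the change of dim genes. Calls are limma tests with a Benjamini-Hochberg adjusted p under 0.05 over all 18365 genes. Levels of different genes come from different probes and are not set against each other. Spearman correlations over all probes ran from 0.973 to 0.977 among Syy arrays, from 0.984 to 0.985 among controls and from 0.968 to 0.977 across the groups. Stellate cell and fibroblast markers were bright in both groups, with summed deposited intensities of 51087 to 54894 on Syy arrays and 35199 to 39521 on control arrays over 6 genes, of which 5 were called higher (COL1A1, COL3A1, VIM, ACTA2 and LOX). Macrophage and leukocyte markers summed to 2712 to 3366 with Syy and 1593 to 1909 in controls over 5 genes, with CD14 called higher and PTPRC, CD163 and LYZ dim. Hepatocyte markers, over 11 measured genes, summed to 273 to 22257 on Syy arrays, the top value in Syy replicate 3, and to 332 to 589 on control arrays, with SERPINA1 called higher. None of the 6 endothelial or the 4 epithelial markers was called. The sums are of unnormalized values, and the upper quartile of all probes was itself higher with Syy (180 to 201) than in controls (137 to 168). VIM weighs most in the stellate cell sum and CD14 in the macrophage sum. The part of these markers in the RAB values was not tested. In these bulk samples fewer cells with a transcript and less of it in each cell cannot be told apart.

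With Syy, 6 of the 58 RAB genes rose, 7 fell and 45 did not pass. The 6 were RAB36, RAB40B, RAB3D, RAB3B, RAB42 and RAB5B, and the 7 were RAB23, RAB8B, RAB22A, RAB10, RAB33A, RAB28 and RAB24. The called share was 22.4%, against 22.4% of all genes (11% of all genes higher and 11.5% lower). Among genes with a group mean at or above the median of all probes it was 28.3% of 46 RAB genes, against 33.6% of 11319 genes. Its median difference was 0.00, against 0 over all genes, with an interquartile range of -0.22 to 0.23 and extremes of -0.84 for RAB8B and 0.79 for RAB17. No RAB gene therefore reached a doubling or a halving on this scale. In 11 RAB genes all Syy values lay above all control values and in 10 they lay below, where 18.9% and 19.4% of all genes did so (38.3% without overlap in either direction).

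The balance of directions moved with the scaling. Median centring gave 9 higher and 5 lower RAB genes, and the unnormalized deposited values 12 and 2. Over all genes, 48.9% of the calls were higher after quantile normalization, 60% after median centring and 81.1% in the unnormalized deposited values. Of the 13 genes called here, 11 were also called after median centring and 8 in the unnormalized deposited values. None of the 13 changed sign under any of the 14 alternatives run. RAB36, RAB40B and RAB23 were called under all 14.

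**Figure D1:**
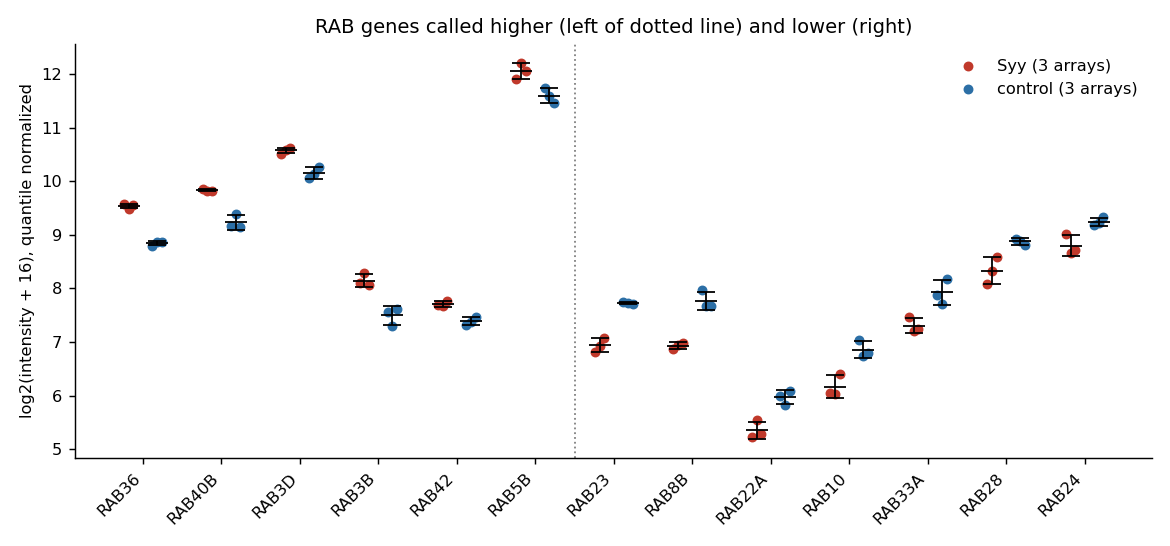
Normalized log2 values of the 13 called RAB genes on each of the 6 arrays, with Syy arrays (red) left of control arrays (blue) and bars for the mean ± SD (n = 3 each). In every gene shown the Syy points lie wholly above or wholly below the control points; heights of different genes come from different probes and are not comparable.

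RAB36, which binds adaptor proteins of the RILP family, had the smallest p of the family. It read 9.57, 9.49 and 9.56 in Syy-treated cells, against 8.80, 8.86 and 8.87 in control cells. The groups stood far apart for their spread, with a difference of 0.70 ± 0.05 (SE, n = 3 each), which is 1.62-fold (adjusted p = 0.00219). RAB40B, whose protein carries a SOCS box and works with a ubiquitin ligase, read 9.85, 9.82 and 9.82 with Syy, against 9.16, 9.40 and 9.15 in controls. It rose 1.51-fold (difference 0.60 ± 0.08, adjusted p = 0.00645), and both of its probes were called, with differences of 0.60 and 0.42.

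RAB23, a negative regulator of Hedgehog signalling that acts at the primary cilium, went down. It read 6.82, 6.92 and 7.08 with Syy, against 7.75, 7.72 and 7.71 in controls, and was 1.72-fold lower (difference -0.78 ± 0.08, adjusted p = 0.00319). A second, dimmer probe of RAB23 gave -0.11 and was not called. RAB8B, which with its relative RAB8A drives exocytic carriers towards the plasma membrane, read 6.87, 6.94 and 6.99 with Syy, against 7.96, 7.67 and 7.68 in controls. It was 1.79-fold lower (difference -0.84 ± 0.10, adjusted p = 0.00433), the strongest fall in the family. A second RAB8B probe, below the median of all probes, differed by -0.20 and was not called. Without Syy replicate 3 and control replicate 2 together, the call of RAB8B was lost (adjusted p = 0.0531, the highest of a range that starts at 0.00187).

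The promoters of 4 called genes are shown, the 2 with the smallest p in each direction among those with a promoter at hand. The letters upstream of genes that rose and genes that fell can so be read side by side. Each is the 250 bases before the RefSeq start in GRCh38.p14, 5′ to 3′ on the strand of the gene. RAB36 was not among the promoters used. Capitals mark matches on either strand to the antioxidant response element core TGACNNNGC, the E-box CACGTG, the CCAAT box, the GC box GGGCGG or the TATA box TATAAA. Each motif was counted on its own, so matches may overlap.
RAB40B, chr17:82698699-82698948 (- strand): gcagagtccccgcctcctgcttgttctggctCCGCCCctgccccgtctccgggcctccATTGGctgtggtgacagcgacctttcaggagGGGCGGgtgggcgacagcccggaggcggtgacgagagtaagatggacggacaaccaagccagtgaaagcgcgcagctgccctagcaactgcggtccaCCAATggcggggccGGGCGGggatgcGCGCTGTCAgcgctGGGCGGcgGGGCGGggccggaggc
RAB3D, chr19:11339658-11339907 (- strand): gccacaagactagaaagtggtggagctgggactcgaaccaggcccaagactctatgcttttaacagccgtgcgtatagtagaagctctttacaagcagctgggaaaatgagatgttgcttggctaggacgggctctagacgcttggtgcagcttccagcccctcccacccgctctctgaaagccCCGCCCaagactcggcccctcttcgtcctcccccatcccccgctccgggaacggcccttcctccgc
RAB23, chr6:57222308-57222557 (- strand): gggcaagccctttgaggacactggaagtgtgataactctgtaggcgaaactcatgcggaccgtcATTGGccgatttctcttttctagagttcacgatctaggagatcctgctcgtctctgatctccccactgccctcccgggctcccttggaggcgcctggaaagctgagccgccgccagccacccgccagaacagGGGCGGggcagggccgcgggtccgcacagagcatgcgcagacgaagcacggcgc
RAB8B, chr15:63189356-63189605 (+ strand): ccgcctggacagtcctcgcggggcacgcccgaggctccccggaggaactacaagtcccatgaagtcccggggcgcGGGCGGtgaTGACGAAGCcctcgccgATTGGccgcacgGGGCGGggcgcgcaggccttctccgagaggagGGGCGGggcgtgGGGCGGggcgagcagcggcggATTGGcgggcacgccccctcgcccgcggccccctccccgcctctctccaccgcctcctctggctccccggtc

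GC boxes stood in all 4 of these promoters, 5 of them in RAB40B, 4 in RAB8B and 1 each in RAB3D and RAB23. RAB40B and RAB8B each held 1 match to TGACNNNGC and 2 to CCAAT, and RAB23 held 1 CCAAT. None of the 4 held an E-box or a TATA box of these letters in this window. Over the 45 RAB genes with a promoter in the table, 80% held GGGCGG, against 42.3% of all 27305 promoters, with a median GC content of 64.8% against 58%. TGACNNNGC was in 17.8% of the RAB promoters and 11% of all, CACGTG in 11.1% and 6.49%, CCAAT in 26.7% and 33%, and TATAAA in 4.44% and 11.1%. GGGCGG was in all 5 matched promoters of genes that rose and all 6 of genes that fell, so it did not separate the directions. TGACNNNGC was in 2 of each, and CACGTG in 0 and 1. Median GC content was 59.6% for the genes that rose and 74.2% for those that fell. With 5 and 6 promoters this difference was not tested. A match is a description of the letters only.

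Secretory RABs changed in both directions. Of 22 on the array, 2 rose and 3 fell, with a median of -0.03. The called share of 22.7% was again near the 22.4% of all genes. By step, 1 of 10 RABs of the endoplasmic reticulum and Golgi was called and 4 of 12 exocytic RABs. The difference between these steps was not tested.

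**Figure D2:**
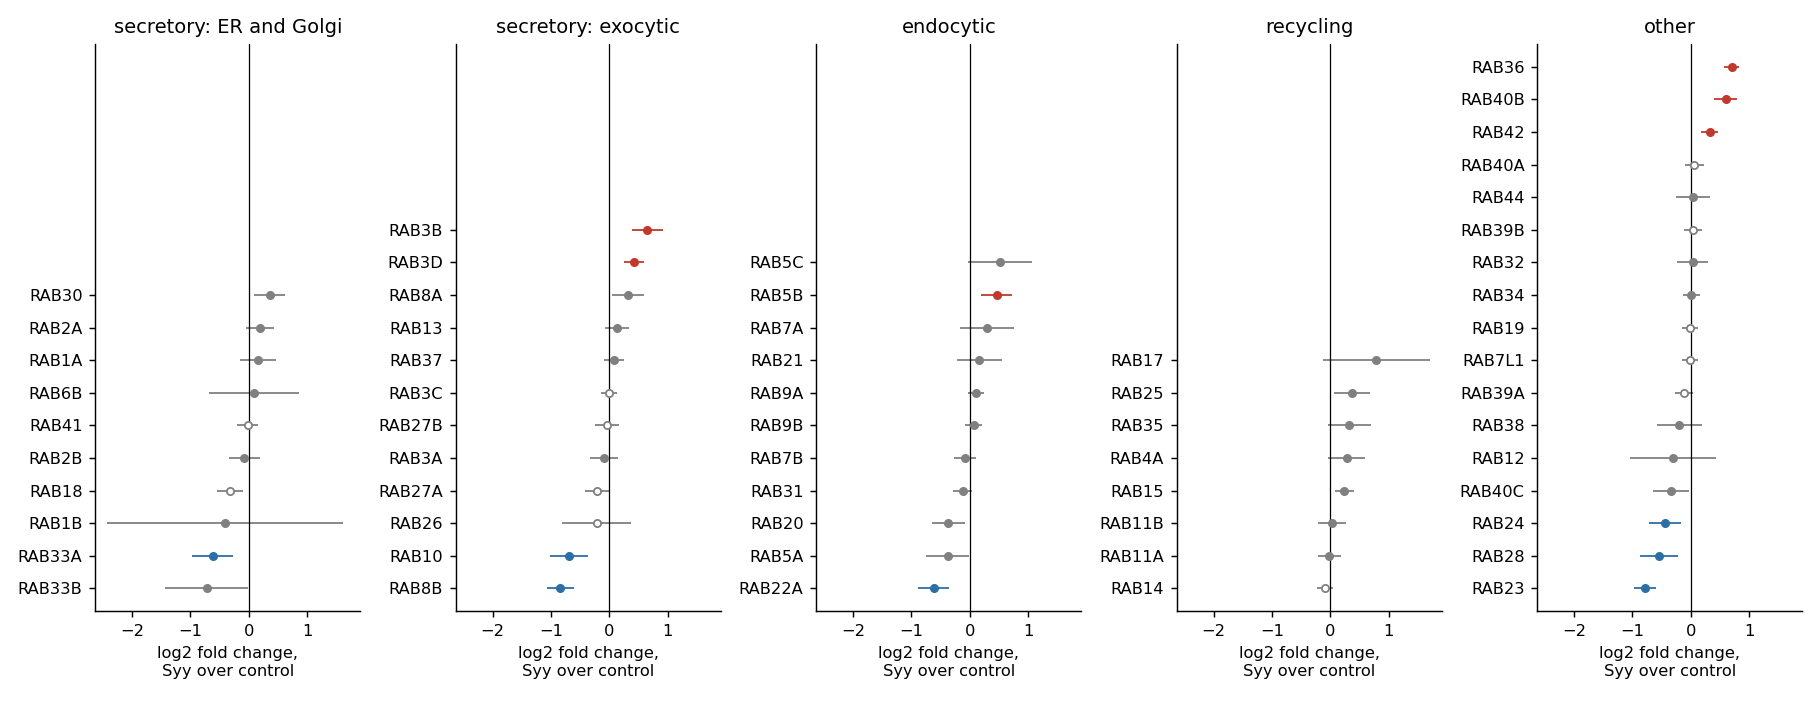
Log2 fold change of each of the 58 RAB genes (Syy over control, points) with its 95% confidence interval (lines), by role. Red points were called higher and blue points lower; grey points were not called, and open points mark the 12 genes whose group means both lay below the median of all probes.

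Among exocytic RABs, both called rises were of the RAB3 group, which docks regulated secretory vesicles. RAB3D read 10.52, 10.59 and 10.62 with Syy, against 10.06, 10.13 and 10.27 in controls, a 1.34-fold rise (difference 0.42 ± 0.07, adjusted p = 0.0119). Its second probe, below the median of all probes, gave -0.29 without a call, and the mean over both probes left 0.07 (adjusted p = 0.865; lowest over the alternatives 0.00291). RAB3B read 8.10, 8.28 and 8.06 with Syy and 7.57, 7.30 and 7.62 in controls, 1.57-fold up (difference 0.65 ± 0.11, adjusted p = 0.0121). RAB3B and RAB3D both lost their calls when Syy replicate 3 and control replicate 2 were left out (adjusted p = 0.0575 and 0.114). RAB3A, the form best known from synapses, was not called (-0.09, adjusted p = 0.555), and RAB3C lay near the lower end of the scale on all arrays (4.09 to 4.18).

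RAB10, which takes part in transport from the Golgi to the cell surface, fell with RAB8B. It read 6.05, 6.04 and 6.41 with Syy, against 7.04, 6.75 and 6.80 in controls, and was 1.62-fold lower (difference -0.69 ± 0.13, adjusted p = 0.0175). Leaving out Syy replicate 1 or 2 or control replicate 1 or 3 ended that call (adjusted p = 0.0557 to 0.0606) and so did the unnormalized deposited values (0.134, the highest of a range that starts at 0.00727). RAB8A, the close relative of RAB8B, read 10.63, 11.02 and 10.86 with Syy, against 10.40, 10.58 and 10.55 in controls, and did not pass (0.33, adjusted p = 0.0955). RAB8A passed without Syy replicate 1 (0.0386) and in the unnormalized deposited values (0.0267, the lowest of a range that ends at 0.297). RAB13, a RAB of cell junctions, was bright in both groups at 13.26 ± 0.13 and 13.13 ± 0.09 (SD, Syy and control) and was not called. RAB27A, RAB27B and RAB26, which serve secretory granules and exosomes, were dim in both groups, and RAB37 differed by 0.08 without a call.

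RABs of the endoplasmic reticulum and Golgi gave 1 call. RAB33A, a Golgi RAB, read 7.47, 7.20 and 7.24 with Syy, against 7.88, 7.71 and 8.18 in controls, and was 1.54-fold lower (difference -0.62 ± 0.14, adjusted p = 0.0287). Leaving out Syy replicate 2 or 3 or control replicate 1 or 3 lost the call (adjusted p = 0.0589 to 0.0945), as did the unnormalized deposited values (0.0729, spanning 0.0129 to 0.103 over all alternatives). RAB33B, its relative and a partner of the autophagy protein ATG16L1, read 5.96, 5.94 and 6.96 with Syy, against 7.09, 6.99 and 6.94 in controls. Syy replicate 3 reached the control values, and the difference of -0.72 did not pass (adjusted p = 0.139). Without that array it was -1.04 (adjusted p = 0.008, the lowest of a range that ends at 0.324).

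RAB1A and RAB1B, which act between the endoplasmic reticulum and the Golgi, were not called. RAB1A differed by 0.15 (adjusted p = 0.448; 95% confidence interval -0.15 to 0.46). RAB1B was the least steady member of the family, at 7.12, 4.55 and 7.06 with Syy and 6.93, 7.32 and 5.69 in controls, and its interval ran from -2.42 to 1.61. RAB2A, RAB2B, RAB41 and RAB6B were not called either, though RAB2A passed in the unnormalized deposited values (adjusted p = 0.00923, where its range ends at 0.92). The chosen RAB2A probe differed by 0.20, while another, below the median of all probes, gave -0.23 and was not called. The probes of RAB6B disagreed, with 0.08 from the brightest, 0.57 from the next and 0.60, called, from a dim one. The mean over its probes was called (0.42, adjusted p = 0.0116, spanning 0.0116 to 1 in all). RAB30 differed by 0.36 (adjusted p = 0.0624), and passed after median centring, in the unnormalized deposited values, with dim probes filtered out and without Syy replicate 3 (0.0133 to 0.0495, in a range up to 0.176). RAB18, which acts at the endoplasmic reticulum and lipid droplets, was below the median of all probes in both groups and differed by -0.32 (adjusted p = 0.0548). It passed without Syy replicate 3 (0.0144, spanning 0.0144 to 0.155 in all).

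Of 11 endocytic RABs, 1 rose and 1 fell (18.2% called, against 22.4% of all genes), with a median of 0.07. With so few calls no direction can be given for this role. RAB5B, of early endosomes, read 11.91, 12.21 and 12.05 with Syy, against 11.74, 11.59 and 11.46 in controls, a 1.37-fold rise (difference 0.46 ± 0.11, adjusted p = 0.0309). The call was lost without Syy replicate 2 or 3 or control replicate 2 or 3 (adjusted p = 0.0744 to 0.0988, spanning 0.0143 to 0.198 over the alternatives). RAB22A, of early and recycling endosomes, read 5.23, 5.54 and 5.29 with Syy, against 5.99, 5.83 and 6.09 in controls. This gene, close to the median of all probes (5.31), was 1.54-fold lower (difference -0.62 ± 0.11, adjusted p = 0.0137), and control replicates 1 and 3 were each needed for the call (0.0561 and 0.0524 without them). It was also lost in the unnormalized deposited values (0.0597) and without Syy replicate 3 and control replicate 2 together (0.0852, in a range from 0.00651).

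The other RAB5 genes were not called. RAB5A read 6.90, 7.13 and 7.47 with Syy, against 7.61, 7.59 and 7.44 in controls (-0.38, adjusted p = 0.137; 0.027 without Syy replicate 3, in a range up to 0.748). RAB5C read 10.43, 9.85 and 10.53 with Syy, against 9.89, 9.93 and 9.44 in controls (0.52, adjusted p = 0.163). Both sets of values overlap between the groups. RAB7A, the main RAB of late endosomes, differed by 0.29 (adjusted p = 0.34; 95% confidence interval -0.17 to 0.75). RAB9A, which serves the return from endosomes to the Golgi, RAB9B, RAB7B, RAB21 and RAB31 were not called, with differences from -0.12 to 0.17. RAB9A passed after median centring and in the unnormalized deposited values (adjusted p = 0.0441 and 0.0396, in a range up to 0.471). RAB20 had all Syy values (10.29, 10.13 and 9.90) below all control values (10.49, 10.36 and 10.58) but did not pass (-0.37, adjusted p = 0.0729). It passed with dim probes filtered out (0.0475, spanning 0.0475 to 0.485 in all).

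None of the 8 recycling RABs was called by limma, where 22.4% of all genes were, and 2 had an unadjusted p under 0.05, as had 6459 of all 18365 genes. No other tool was run. Their median difference was 0.26, the highest of the roles, and 6 of the 8 differences were above 0, as were 9374 of all 18365 genes. The largest of the 8 were those of RAB17 and RAB25. Their probes averaged 5.25 and 5.28 over the 6 arrays, below the median of all probes (5.31). RAB15 read 10.77, 10.67 and 10.56 with Syy, against 10.41, 10.47 and 10.40 in controls, and narrowly missed (0.24 ± 0.07, adjusted p = 0.0512). It passed in 5 alternatives, namely median centring, the unnormalized deposited values, pseudocounts of 32 and 64 and without Syy replicate 3 (0.0247 to 0.0414, spanning 0.0247 to 0.144 in all). RAB25, an epithelial relative of RAB11, differed by 0.38 (adjusted p = 0.0887) and passed without Syy replicate 1 (0.0351, in a range up to 0.291). RAB11A and RAB11B, the central RABs of the recycling endosome, differed by -0.02 and 0.02, with 95% confidence intervals of -0.22 to 0.19 and -0.22 to 0.26. RAB4A, of fast recycling, and RAB35 differed by 0.28 and 0.32 (adjusted p = 0.19 and 0.192). RAB4A passed in the unnormalized deposited values (0.0254, in a range up to 0.58) and RAB35 without Syy replicate 2 (0.0409, in a range up to 0.407). Dimmer probes of RAB4A gave 0.03 and -0.03 and were not called. RAB14 was dim in both groups.

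RAB17, which serves recycling and transcytosis in epithelial cells, had the highest fitted difference of the family without passing. It read 5.23, 5.22 and 6.50 with Syy, against 4.71, 4.76 and 5.11 in controls (0.79 ± 0.37, adjusted p = 0.195). The groups did not overlap, but Syy replicate 3 stood 1.27 over the average of Syy replicates 1 and 2, and it is also the array on which hepatocyte transcripts stood out. APOA2 read 14.09 there, against 5.19 and 6.49 in Syy replicates 1 and 2 and 6.68 to 7.53 in controls. The 4 epithelial or biliary markers summed to 990 to 1319 in deposited intensity with Syy and to 919 to 1124 in controls, with 2 of the 4 dim. Of these KRT19 read 8.72 there, against 5.42 and 5.45 in Syy replicates 1 and 2 and 5.52 to 7.35 in controls, while KRT7 had its lowest value of all arrays there (9.71, against 9.79 and 9.82 in Syy replicates 1 and 2 and 9.83 to 10.31 in controls). EPCAM was near the lower end of the scale on all arrays (4.18 to 4.52), and CDH1 was also dim. Without Syy replicate 3 the difference of RAB17 was 0.37 (adjusted p = 0.139, where all alternatives gave 0.112 to 0.387). The part of such transcripts in the value of RAB17 was not tested. RAB17, RAB33B and RAB1B were the 3 RAB genes whose Syy replicate 3 exceeded the average of Syy replicates 1 and 2 by over 1 log2 unit.

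The remaining 17 RABs, with roles outside these routes, held 3 rises and 3 falls (35.3% called, against 22.4% of all genes) and a median of -0.01. Beside RAB36, RAB40B and RAB23 these were RAB42, RAB28 and RAB24. RAB42 read 7.70, 7.66 and 7.77 with Syy, against 7.32, 7.38 and 7.47 in controls, the smallest called change at 1.25-fold (difference 0.32 ± 0.06, adjusted p = 0.0171). It was lost without control replicate 1 or 2 (0.0527 and 0.0629, spanning 0.00396 to 0.126 in all). RAB28, mutated in cone-rod dystrophy, read 8.08, 8.33 and 8.59 with Syy, against 8.93, 8.89 and 8.81 in controls (difference -0.54 ± 0.13, adjusted p = 0.0352). RAB24, associated with autophagy, read 9.02, 8.65 and 8.73 with Syy, against 9.18, 9.22 and 9.33 in controls (difference -0.44 ± 0.11, adjusted p = 0.0363). A second RAB28 probe, also above the median of all probes, gave -0.21 and was not called. RAB28 and RAB24 were the least secure calls, each lost in 9 of 14 alternatives. For RAB28 these included leaving out any array but Syy replicate 3 (adjusted p = 0.0527 to 0.115), and for RAB24 any array but Syy replicate 1 (0.0872 to 0.118). Over all alternatives their ranges were 0.0152 to 0.313 and 0.0153 to 0.314.

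Bright members of this last group were not called. RAB34, which takes part in ciliogenesis and lysosome positioning, read 14.60 ± 0.08 with Syy and 14.59 ± 0.02 in controls (SD, n = 3 each), with a difference of 0.01 and a 95% confidence interval of -0.13 to 0.15. RAB32, of mitochondria and lysosome-related organelles, read 13.22 ± 0.07 with Syy and 13.19 ± 0.20 in controls. RAB40C overlapped, at 11.20, 10.80 and 10.99 with Syy and 11.17, 11.46 and 11.37 in controls (-0.34, adjusted p = 0.116). RAB12, RAB38 and RAB44 were not called. RAB19, RAB39A, RAB39B, RAB40A and RAB7L1 (now RAB29) lay below the median of all probes in both groups, as did RAB3C, RAB14, RAB18, RAB26, RAB27A, RAB27B and RAB41, and none of these 12 was called.

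Changes of close relatives, not their levels, were set against each other within arrays. The within-array difference between a called RAB and its relative was compared over samples in 8 pairs whose members were both above the dim range. RAB8B minus RAB8A ran from -4.08 to -3.76 on Syy arrays and from -2.91 to -2.44 on control arrays, a change of -1.16 between the groups. RAB40B minus RAB40C changed by 0.94, RAB5B minus RAB5A by 0.84, RAB3B minus RAB3A by 0.74 and RAB3D minus RAB3A by 0.51. In these 5 pairs the groups did not overlap, and each exact two-sided permutation p was 0.1, the smallest that 3 against 3 samples can give (adjusted p = 0.16 over the 8 pairs). The other 3 pairs overlapped, with changes of -0.06 for RAB5B minus RAB5C, 0.10 for RAB33A minus RAB33B and -0.23 for RAB3D minus RAB3B (exact p = 0.9, 0.8 and 0.2). Every pair was chosen for a member called on these same arrays, which favours groups without overlap. The pairs are therefore a description and no separate support for the calls.

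**Figure D3:**
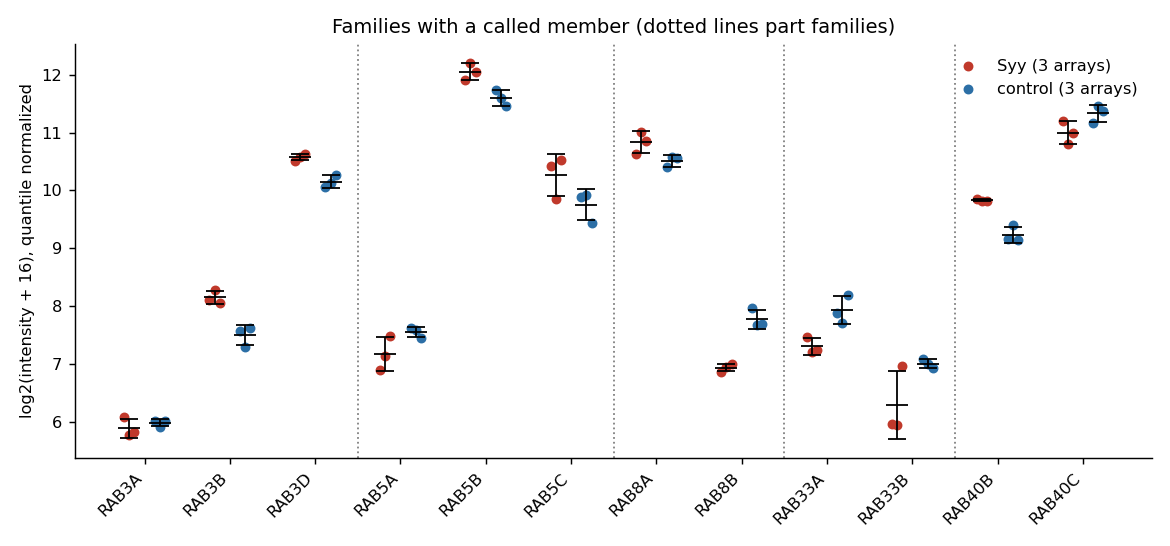
Normalized log2 values of RAB families with a called member and relatives above the dim range, on Syy arrays (red, left) and control arrays (blue, right), with the mean ± SD (n = 3 each). RAB8B lies lower with Syy while the RAB8A values lie above the controls; RAB40B lies higher while RAB40C overlaps.

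The genes that load, switch and read RABs were compared from a list of 139, of which 135 could be placed on the array. Of these 25 rose, 23 fell and 87 did not pass, with a median of 0.00. The called share was 35.6%, against 22.4% of all genes and 33.6% of the 11319 genes with a group mean at or above the median of all probes. Of the 135, 104 were that bright, and 2 of the called genes were not. The 35.6% thus includes dim partners, and the share over bright partners alone is higher. The difference in share was not tested. In the unnormalized deposited values 37 were higher and 7 lower.

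RABGGTB, the catalytic subunit of the transferase that attaches the prenyl anchor, was the called member of its class. It read 7.36, 7.09 and 7.95 with Syy, against 9.04, 8.72 and 8.69 in controls, and was 2.55-fold lower (difference -1.35 ± 0.23, adjusted p = 0.0133). Its call was lost without control replicate 1 (adjusted p = 0.0552, spanning 0.00375 to 0.0552 in all), while the difference ran from -1.64 to -1.07 over the alternatives. RABGGTA, the other subunit, read 8.60 ± 0.08 with Syy and 8.57 ± 0.16 in controls and was not called. GDI2, which takes RABs off membranes, and RABAC1, which releases them from GDI, had all Syy values below all control values without passing (-0.46 and -0.29, adjusted p = 0.0824 and 0.0576). CHML, an escort protein, was dim. In this class 1 of 5 was called (20%), against 22.4% of all genes. All Syy values lay below all control values in 3 of the 5 and in 19.4% of all genes.

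Exchange factors had 9 of 42 members higher and 5 lower, a share of 33.3%, against 22.4% of all genes and 33.6% of the bright ones. Only 31 of the 42 were bright, and 1 of the called members was dim. The share over bright exchange factors alone is therefore higher than 33.3%, and the difference in share was not tested. TRAPPC6B, a subunit of the TRAPP complexes that activate RAB1, was 1.79-fold lower (5.22 ± 0.10 with Syy, 6.05 ± 0.05 in controls, adjusted p = 0.00237). TRAPPC5, another subunit, was 1.45-fold lower (13.29 ± 0.05 with Syy, 13.83 ± 0.11 in controls, adjusted p = 0.00623). DENND5A rose 1.38-fold (8.41 ± 0.03 with Syy, 7.95 ± 0.09 in controls, adjusted p = 0.00598). GTPase activating proteins had 5 of 35 higher and 6 lower, a share of 31.4% set against the same 22.4% and 33.6%. Of the 35, 29 were bright and no called member was dim, so the share over the bright members alone is higher than 31.4%. TBC1D15, which acts on RAB7, was 2.01-fold lower (5.17 ± 0.04 with Syy, 6.18 ± 0.21 in controls, adjusted p = 0.00393). TBC1D10A, which acts on RAB27A and RAB35, was 1.51-fold lower (8.19 ± 0.11 with Syy, 8.78 ± 0.06 in controls, adjusted p = 0.00511). TBC1D1, which regulates glucose transporter traffic, was 1.71-fold higher (8.23 ± 0.18 with Syy, 7.45 ± 0.10 in controls, adjusted p = 0.0069).

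Of 53 effectors, 11 rose and 11 fell, a called share of 41.5%, against 22.4% of all genes and 33.6% of the bright ones. Of the 53, 40 were bright, and 1 of the called effectors was dim. The share over bright effectors alone is therefore higher than 41.5%, and the difference in share was not tested. RILP, which links RAB7 to the dynein motor, was 1.83-fold lower, reading 9.62, 9.48 and 9.37 with Syy, against 10.26, 10.39 and 10.44 in controls (difference -0.87 ± 0.08, adjusted p = 0.00318). WDR44, which binds RAB11, was 1.71-fold lower (6.66 ± 0.08 with Syy, 7.43 ± 0.16 in controls, adjusted p = 0.00543). RUFY1, an effector of RAB4 and RAB14, rose 1.32-fold (8.49 ± 0.04 with Syy, 8.09 ± 0.01 in controls, adjusted p = 0.00429). RILP, RUFY1, TBC1D15 and TRAPPC6B were called under all 14 alternatives. The Syy means of TBC1D15 and TRAPPC6B lay below the median of all probes (5.31), so the size of their falls is uncertain. Over the alternatives the difference ran from -1.09 to -0.52 for TBC1D15 and from -0.89 to -0.43 for TRAPPC6B. The call of WDR44 was lost in the unnormalized deposited values (adjusted p = 0.0599, in a range from 0.00246), and those of TRAPPC5, DENND5A, TBC1D10A and TBC1D1 without Syy replicate 3 and control replicate 2 (0.0695, 0.073, 0.0518 and 0.079, from lowest values of 0.00447, 0.00277, 0.00341 and 0.00272). TBC1D10A was also lost in the unnormalized deposited values (0.0783) and TBC1D1 with the mean over its probes (0.0528).

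**Figure D4:**
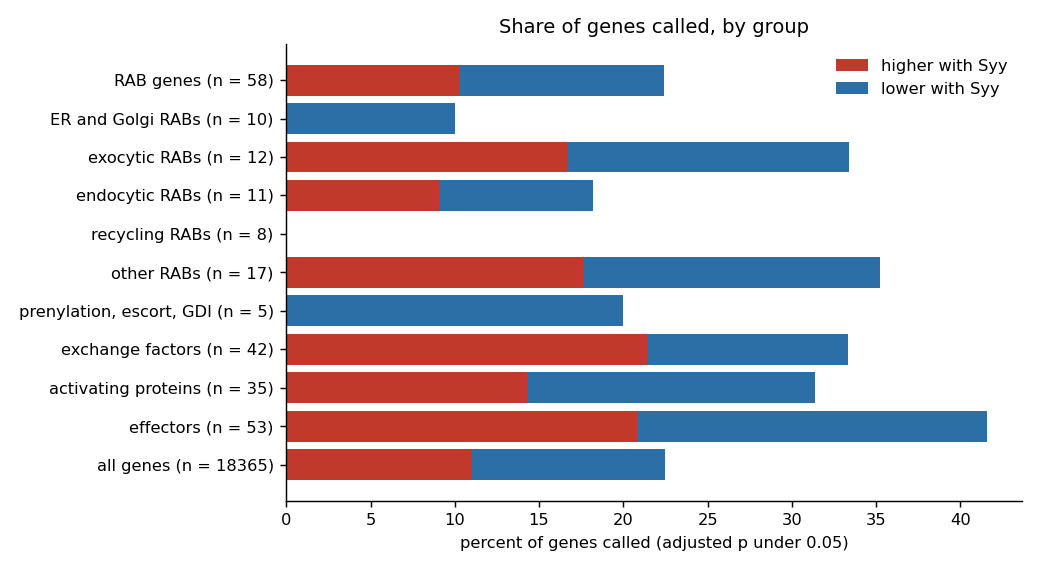
Percent of genes called higher (red) and lower (blue) with Syy in each role of the RAB family, in each class of RAB partners and over all genes. The RAB family and all genes both stand at 22.4%, recycling RABs at 0%, and effectors at 41.5%; the differences between bars were not tested.

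**Figure D5:**
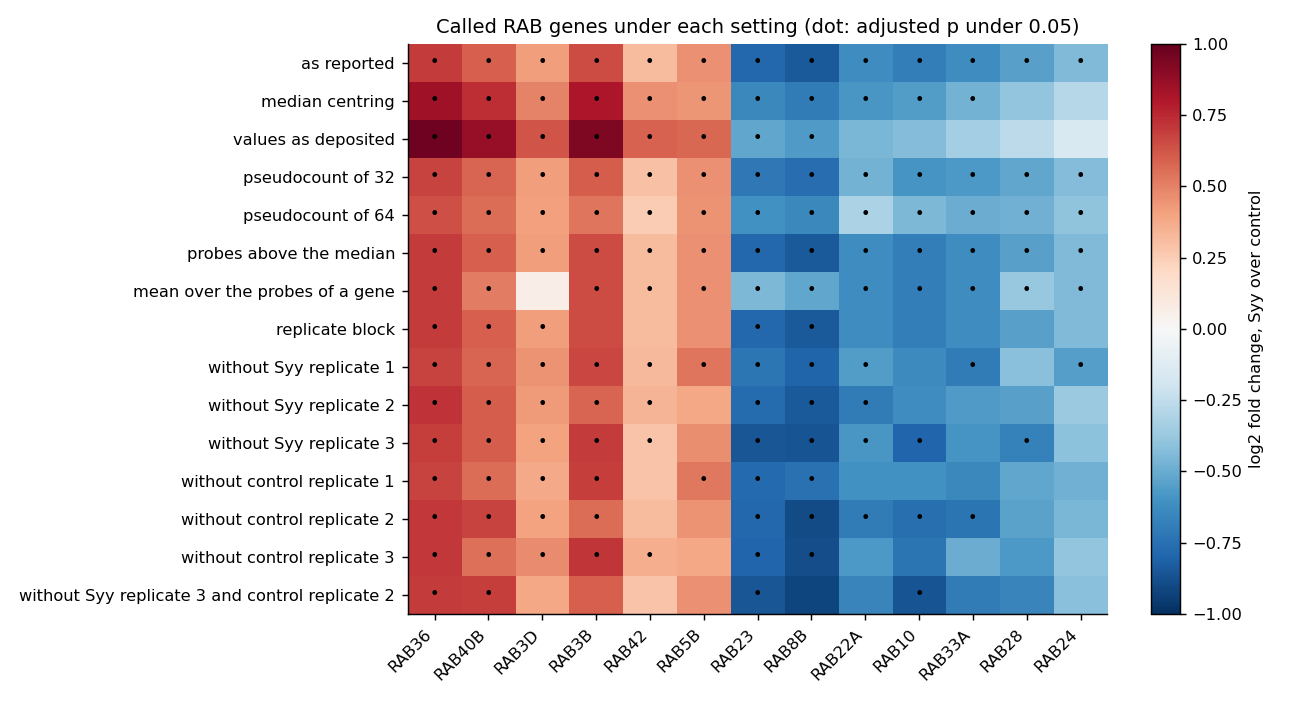
Log2 fold change (Syy over control, colour) of the 13 called RAB genes as reported and under 14 alternative settings, with a dot where the adjusted p was under 0.05. RAB36, RAB40B and RAB23 have a dot at every setting, and RAB24 and RAB28 lack it in 9 of the 14 alternatives.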

How the data were processed

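Amplified, Cy5-labelled RNA of 6 LX2 samples was hybridised to 1-channel Phalanx arrays, per the labels' protocols. The authors deposited linear-scale intensities for 31741 probes. Software, background method and scaling are not stated in the labels. The lowest value is -10.6, and 1902 probes were at or below 0 on an array. No detection flags were used, and precision is limited by the small number of arrays.

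The deposited intensities were turned into log2(value + 16) and quantile normalized over the arrays. Platform annotation, which can be old, gave 24740 probes 1 symbol, 977 several and left 6024 unnamed; the brightest single-symbol probe on average stood for a gene. Of 79 RAB probes, 40 genes had 1 and 18 genes several. RAB4B, RAB6A, RAB6C and RAB43 had only probes shared with other symbols and are not among the members. Of the symbols, 57 are current in RefSeq (GRCh38.p14) and 1 is older. Probe sequences were not used here, so cross-hybridisation between relatives was not checked and values of near-identical RABs are uncertain.

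Groups came from the sample titles and were tested two-sided in R 4.3.3 with lmFit and eBayes of limma 3.58.1 and no covariate. On simulated data, over 18365 genes, 62% of 50 genes raised by 1 and 70% of 50 lowered by 1 were recovered. For 50 genes raised and 50 lowered by 0.5 the shares were 18% and 22%, and 5 of 18165 unchanged genes were called. With so few changed genes the Benjamini-Hochberg cut was stricter than in the real data, where 4121 of 18365 genes were called. These rates therefore do not give the recovery in the real comparison. Members, roles and partner lists were chosen with earlier results of these data known. Every called RAB gene is named with all its values, and of the others the 8 brightest, those with an adjusted p under 0.1 and the relatives of called genes; partners are the 3 called with the smallest p in each class and, for prenylation, escort and GDI genes, the called one, beside which the other 4 are named too.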

Additional observations from a re-analysis of the deposited data

How the results depend on the processing

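Of the 13 called RAB genes, 3 stayed called in all 14 alternatives (scaling, pseudocount, probe filter, probe choice, replicate block and arrays left out), none turned its sign, and 13 others were called in at least 1. Counts of higher and lower genes moved by over 1.5 times as follows, and the cause was not tested. By design, leaving out arrays leaves fewer samples, and the replicate block leaves fewer degrees of freedom to estimate the spread. In the unnormalized deposited values, all genes had 3157 and 737, RAB genes 12 and 2, secretory RABs 5 and 1, endocytic RABs 2 and 0, recycling RABs 2 higher, and regulators and effectors 7 lower. With the replicate block the counts were 1051 and 852, 3 and 2 (RAB), 1 and 1 (secretory), 0 and 0 (endocytic) and 8 and 10 (regulators and effectors). Median centring gave 2 higher endocytic and 1 higher recycling RAB, each pseudocount (32 and 64) 1 higher recycling RAB, and the filter on dim probes 2 lower endocytic RABs. With both Syy replicate 3 and control replicate 2 left out, an alternative added after seeing the data that leaves 2 samples a group, all genes had 566 and 537, RAB genes 2 and 3, secretory RABs 0 higher, endocytic RABs 0 and 0, and regulators and effectors 6 and 9.

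Leaving out 1 array at a time gave 1197 to 1787 higher genes (fewest without control replicate 1) and 1088 to 1965 lower genes (fewest without control replicate 2) over the array. RAB genes numbered 4 to 8 higher, fewest without control replicate 2, and 2 to 8 lower, with 2 when control replicate 1 or 3 was out and 3 when Syy replicate 2 was out. Secretory RABs had 2 to 3 higher and 1 to 4 lower, the 1 without Syy replicate 2 or control replicate 1 or 3. Endocytic RABs had 0 to 1 higher, none without Syy replicate 2 or 3 or control replicate 2 or 3, and 0 to 2 lower, none without control replicate 1 or 3, and recycling RABs 0 to 1 higher and 0 to 0 lower. Regulators and effectors had 9 to 24 higher, fewest without control replicate 1, and 11 to 23 lower, fewest without control replicate 3. With the block RAB10, RAB22A, RAB24, RAB28, RAB33A, RAB3B, RAB42, RAB5B and RABGGTB lost their calls (adjusted p = 0.0516 to 0.102). Same-numbered samples share only a number: their deviations from the group means correlated at -0.08, -0.08 and -0.03 over genes, and no Syy sample correlated best with the control of its own number. Dim probes, whose changes the pseudocount shrinks, limit what can be said of the 12 members below the median.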
